A study of Mus musculus with 8 samples.

Results

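Meiotic strand invasion and the loading of its recombinase were examined through 8 genes: *Dmc1*, *Psmc3ip* (encoding HOP2), *Mnd1*, *Meiob*, *Spata22*, *4930432K21Rik* (encoding BRME1), *Brca2* and *Mcmdc2*. They were taken by their gene symbols from 25239 genes counted in each library, and all 8 passed the filter on low counts that left 14249 genes for testing. RNA-Seq had been performed on ovaries from C57BL/6 embryos at E14.5, each library being pooled from the gonads of 2 embryos. The 4 control pools had the genotype Bmpr1a fl/fl, and in the 4 *Bmpr1a*-cKO pools the same floxed alleles were combined with Oct4-Cre Cre/WT. Dams of both groups were injected with 4-hydroxytamoxifen (1 mg) plus progesterone (0.5 mg) on 3 days, first at 9.5 dpc, then at 10.5 dpc and last at 11.5 dpc. The *Oct4*-driven, tamoxifen-dependent Cre deletes *Bmpr1a*, which encodes a type I BMP receptor, in germ cells, while the ovarian somatic cells keep the gene. The embryos, 8 per genotype, came from 6 litters, and the litter of each library is not given in the sources used here, so that the p-values measure the spread between these pools only.

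In meiotic prophase, programmed double-strand breaks are resected to single-stranded DNA, which is first coated by single-strand binding proteins. Recombinases such as DMC1 then replace this coat and drive the strand into the homologous chromosome, which pairs the homologues and allows crossovers. BRCA2 delivers the recombinases, BRME1 works with HSF2BP to bring BRCA2 to meiotic breaks, MEIOB and SPATA22 form a meiosis-specific complex on single-stranded DNA, HOP2 and MND1 form a heterodimer that stimulates strand invasion by DMC1, and MCMDC2 is an MCM-like protein needed for the repair of meiotic breaks and homologue alignment. In the mouse ovary, germ cells enter this programme in fetal life, after STRA8 and MEIOSIN have switched on meiotic genes.

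Levels are given as CPM, the count of a gene scaled to the size of its library after TMM normalisation. The 8 genes did not move as 1 block. Transcripts of *Meiob* and *Spata22* were the most strongly reduced in *Bmpr1a*-cKO ovaries, *Mcmdc2*, *Dmc1* and *4930432K21Rik* were reduced to a smaller extent, *Brca2* was slightly lower, *Psmc3ip* was slightly higher, and *Mnd1* did not pass the test. At an FDR under 0.05 (edgeR quasi-likelihood test, adjusted over all genes tested), 6 of 8 were lower and 1 was higher, against 12.7% of all genes lower and 17.3% higher. Of the 8 genes, 5 were differentially expressed genes (DEGs, absolute log2 fold change above 0.5 with an FDR under 0.05) that were lower, against 4.04% of all genes, and 0 were DEGs that were higher, against 6.08%. The median log2 fold change was -1.04 for the 8 genes and -0.0042 for all genes tested. The libraries of the genotypes did not overlap for the same 5 DEGs, all lower, and for *Psmc3ip*, which was higher, whereas 11.7% of all genes separated downwards and 16.1% upwards. The 8 genes were chosen with earlier results of these data known, so these comparisons with all genes are given as a description.

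**Figure D1:**
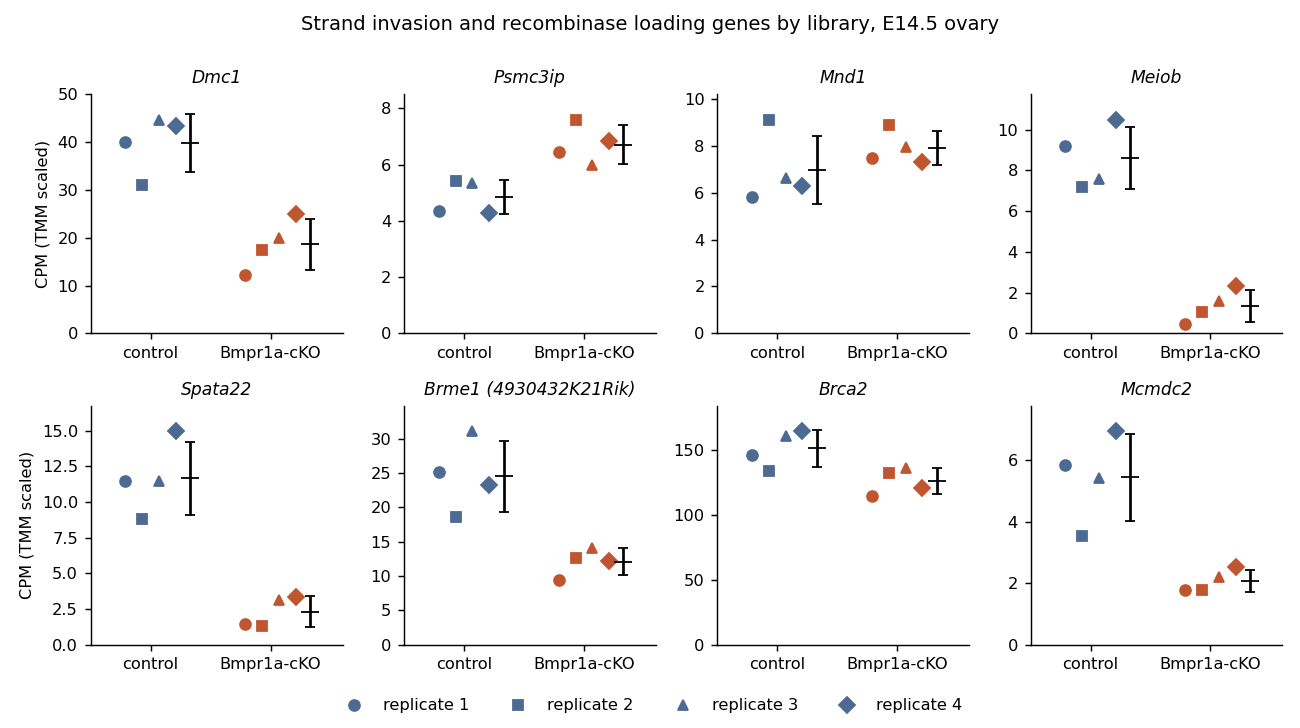
Level of each of the 8 genes in CPM (vertical axes from 0) in 4 control (blue) and 4 *Bmpr1a*-cKO (orange) libraries, with a marker shape per replicate number and black bars for the mean ± SD. The *Bmpr1a*-cKO libraries lie below all control libraries for *Dmc1*, *Meiob*, *Spata22*, *4930432K21Rik* and *Mcmdc2*, above them for *Psmc3ip* and among them for *Mnd1*, while for *Brca2* 3 of 4 lie below all controls and the other exceeds control library 2.

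The libraries held 8562961 to 15365052 counts, so that 3 counts, the limit that a count of 0 allows, corresponded to 0.189 to 0.358 CPM. The germ cell markers were present in every library, and their summed level (*Ddx4*, *Dazl*, *Dnd1*, *Mael*, *Piwil2* and *Tdrd9*) was 569 to 755 CPM in control and 616 to 979 CPM in *Bmpr1a*-cKO libraries, with *Mael* and *Tdrd9* lower and *Dazl* and *Dnd1* higher. The sum for 6 pregranulosa cell markers was 804 to 900.1 CPM in control and 624 to 762 CPM in *Bmpr1a*-cKO libraries, with 5 of 6 lower, and that for 5 macrophage markers was 27.2 to 35.6 and 34.8 to 42.8 CPM, with 2 of 5 higher. Of 3 Sertoli cell markers 1 was lower, with sums of 10.02 to 11.7 CPM in control and 8.19 to 8.70 CPM in *Bmpr1a*-cKO libraries. No marker of endothelium, stroma or mesonephros passed the test, and neither did *Alas2*, the only erythroid marker tested (23.7 to 44.6 and 20.9 to 42.3 CPM). The other erythroid markers, 4 of 5, were at 0 in all libraries and were not tested, so they do not show whether erythroid RNA was present. In whole ovaries, fewer germ cells and less RNA per germ cell cannot be told apart, and the part of these markers in the results was not tested. *Bmpr1a* itself was at 199 to 237 CPM in control and 185 to 209 CPM in *Bmpr1a*-cKO libraries (log2 fold change -0.16, FDR 0.067, under 0.05 in 7 of 21 alternatives, including those without control library 1, 0.0384, or *Bmpr1a*-cKO library 4, 0.0388, and with the summed germ cell markers at -0.51, 0.0391). This does not check the labels because the somatic cells keep the gene and counts are given per gene.

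*Dmc1* encodes the meiosis-specific recombinase and lies on chromosome 15 (mm10, chr15:79561497-79605109, minus strand). Its level was 40.0, 31.1, 44.7 and 43.5 CPM in control libraries 1 to 4 and 12.3, 17.4, 19.9 and 25.0 CPM in *Bmpr1a*-cKO libraries 1 to 4. All *Bmpr1a*-cKO libraries lay below the lowest control, library 2, and *Bmpr1a*-cKO library 4 came closest to it. The mean fell from 39.8 ± 6.15 to 18.7 ± 5.31 CPM (SD, n = 4), a 2.10-fold reduction (log2 fold change -1.07 ± 0.194 SE, FDR 0.00326).

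The stretches from 120 bases before to 30 bases from the annotated start are shown for *Dmc1*, *Spata22* and *4930432K21Rik*, which were lower and hold a searched motif, and for *Psmc3ip*, which was higher and holds none. They were taken from RefSeq (GRCm38.p6), on the strand of the gene, at chr15:79605080-79605229 (minus), chr11:73329621-73329770 (plus), chr8:84147918-84148067 (plus) and chr11:101095406-101095555 (minus), respectively. Capitals mark GGCGCC, a GC-rich SMAD element, in *Dmc1* and GCGGGAA, an E2F motif, in *Spata22* and *4930432K21Rik*. The stretches of *Brca2*, slightly lower and with GCGGGAA further upstream, and of *Mnd1*, which did not pass and holds no searched motif, are not shown.
Dmc1: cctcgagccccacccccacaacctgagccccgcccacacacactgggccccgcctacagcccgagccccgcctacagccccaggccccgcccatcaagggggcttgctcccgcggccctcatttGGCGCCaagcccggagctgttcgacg
Spata22: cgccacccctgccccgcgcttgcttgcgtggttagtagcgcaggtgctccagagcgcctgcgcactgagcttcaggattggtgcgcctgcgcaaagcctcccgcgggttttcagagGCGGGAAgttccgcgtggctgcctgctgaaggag
4930432K21Rik: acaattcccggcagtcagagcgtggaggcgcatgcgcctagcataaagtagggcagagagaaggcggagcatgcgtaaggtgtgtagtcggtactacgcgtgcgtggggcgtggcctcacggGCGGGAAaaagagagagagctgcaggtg
Psmc3ip: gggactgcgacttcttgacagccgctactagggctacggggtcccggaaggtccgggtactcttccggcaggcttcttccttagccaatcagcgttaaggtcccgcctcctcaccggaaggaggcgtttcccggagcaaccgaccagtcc

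A promoter window of 300 bases, 250 before and 50 from the start, was found for 6 of 8 genes, the others being *Meiob* and *Mcmdc2*. On either strand, GCGGGAA occurred in 3 of 6 windows, against 4.60% of 32851 windows of all genes. It began 4 bases upstream of the start in *Spata22*, 2 bases downstream of it in *4930432K21Rik* and 168 bases upstream in *Brca2*, which were all lower, to very different degrees. GGCGCC occurred in 1 of 6 windows, that of *Dmc1*, 4 bases downstream of the start, against 11.9% of all windows. The STRA8-MEIOSIN motif CNCCTCAG and the E-box CACGTG occurred in 0 of 6 windows, against 7.94% and 7.15% of all windows. No window held more than 1 of these matches, so none overlapped another. The 6 windows were richer in G and C (56.7% to 69.0%, all windows having a median of 52.7%) and in CpG (12 to 28, against a median of 7), including those of *Psmc3ip* and *Mnd1*, which were not lower. These matches describe letters in the sequence and were not tested for binding.

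*Psmc3ip* and *Mnd1*, which encode the HOP2-MND1 heterodimer that acts on DMC1, were not among the genes that were lower. *Psmc3ip* (mm10, chr11:101091823-101095436, minus strand) was at 4.36, 5.40, 5.34 and 4.29 CPM in control libraries and at 6.44, 7.59, 5.97 and 6.82 CPM in *Bmpr1a*-cKO libraries. Every *Bmpr1a*-cKO library exceeded the highest control, though *Bmpr1a*-cKO library 3 did so only narrowly. The increase was 1.40-fold (4.85 ± 0.605 to 6.70 ± 0.684 CPM, SD, n = 4, log2 fold change 0.49 ± 0.146 SE, FDR 0.0177), which was below the fold change required of a DEG. This call rested on 53 to 102 counts per library and was lost without control library 1 (FDR 0.0544), control library 4 (FDR 0.0686) or *Bmpr1a*-cKO library 2 (FDR 0.0781). When libraries were scaled to the summed germ cell markers, of which *Dazl* alone gave 282 to 615 CPM, the log2 fold change was 0.12 (FDR 0.686), while the median over all genes moved to -0.36.

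*Mnd1* (mm10, chr3:84087933-84155786, minus strand) was at 5.84, 9.12, 6.65 and 6.31 CPM in control libraries and at 7.51, 8.92, 7.96 and 7.30 CPM in *Bmpr1a*-cKO libraries. Control library 2 was the highest of the 8 and the genotypes overlapped. The log2 fold change was 0.19 with a 95% interval of -0.12 to 0.51 (FDR 0.363), and its sign turned to -0.17 (FDR 0.56) when libraries were scaled to the summed germ cell markers. A reduction of the size seen for *Dmc1* lay outside this interval.

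*Meiob* and *Spata22* encode the partners of the complex that binds single-stranded DNA at meiotic breaks, and theirs were the largest reductions among the 8 genes. *Meiob* (mm10, chr17:24804289-24839788, plus strand) was at 9.21, 7.17, 7.59 and 10.5 CPM in control libraries and at 0.477, 1.04, 1.57 and 2.32 CPM in *Bmpr1a*-cKO libraries. The groups were far apart, and all *Bmpr1a*-cKO libraries lay above the limit of 3 counts, the lowest (library 1) with 4 counts (95% exact interval 0.13 to 1.22 CPM, counting error only). The mean fell from 8.61 ± 1.52 to 1.35 ± 0.785 CPM (SD, n = 4), a 6.01-fold reduction (log2 fold change -2.59 ± 0.265 SE, FDR 3.91e-06).

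*Spata22* (mm10, chr11:73329741-73346044, plus strand) was at 11.4, 8.77, 11.4 and 15.0 CPM in control libraries and at 1.43, 1.26, 3.14 and 3.34 CPM in *Bmpr1a*-cKO libraries. Here too the groups were separate, and *Bmpr1a*-cKO libraries 3 and 4 retained more transcript than libraries 1 and 2. The mean fell from 11.6 ± 2.54 to 2.29 ± 1.10 CPM (SD, n = 4), a 5.01-fold reduction (log2 fold change -2.33 ± 0.266 SE, FDR 3.93e-05). The *Bmpr1a*-cKO libraries varied widely for both genes, with a ratio of the highest to the lowest of 4.86 for *Meiob* and 2.64 for *Spata22*, on 4 to 34 and 12 to 49 counts.

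BRME1 and BRCA2 belong to the machinery that loads the recombinases, and their transcripts fell by different amounts. *4930432K21Rik*, the *Brme1* gene (mm10, chr8:84148025-84172590, plus strand), was at 25.1, 18.6, 31.1 and 23.3 CPM in control libraries and at 9.42, 12.6, 14.1 and 12.2 CPM in *Bmpr1a*-cKO libraries. The groups did not overlap, control library 2 being the closest to the *Bmpr1a*-cKO libraries. The reduction was 2.01-fold (24.5 ± 5.17 to 12.1 ± 1.96 CPM, SD, n = 4, log2 fold change -1.01 ± 0.147 SE, FDR 0.000143).

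*Brca2* (mm10, chr5:150522630-150570329, plus strand), which also serves repair in dividing cells, was at 147, 134, 161 and 165 CPM in control libraries and at 115, 132, 136 and 121 CPM in *Bmpr1a*-cKO libraries. The groups overlapped, since *Bmpr1a*-cKO library 3 exceeded control library 2. The difference was small but passed the test (1.20-fold lower, log2 fold change -0.26 ± 0.0738 SE, 95% interval -0.42 to -0.11, FDR 0.0115), and *Brca2* was not a DEG. It no longer passed when libraries were scaled to the geometric mean of the germ cell markers (log2 fold change -0.31, FDR 0.333) or to *Ddx4* (-0.36, FDR 0.608), and with scaling to the summed germ cell markers it was a DEG (-0.62, FDR 0.0121). *Hsf2bp*, whose product binds BRME1 and BRCA2, was at 32.1 to 42.9 CPM in control and 18.6 to 34.0 CPM in *Bmpr1a*-cKO libraries (log2 fold change -0.40 ± 0.158 SE, FDR 0.0864), and it passed in 7 of 21 alternatives, namely the likelihood ratio test of edgeR (FDR 0.0415), DESeq2 (0.0226), library size alone (0.047), the summed germ cell markers (log2 fold change -0.80, FDR 0.000945), no robust estimation (0.0408), and without *Bmpr1a*-cKO library 1 (0.0449) or 4 (0.0264).

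*Mcmdc2* (mm10, chr1:9908638-9942085, plus strand) had the lowest level of the 8 genes per kilobase of exon. It was at 5.84, 3.54, 5.43 and 6.94 CPM in control libraries and at 1.79, 1.78, 2.20 and 2.52 CPM in *Bmpr1a*-cKO libraries. The groups were separate, with control library 2 again the lowest control. The reduction was 2.61-fold (5.44 ± 1.42 to 2.07 ± 0.358 CPM, SD, n = 4, log2 fold change -1.39 ± 0.218 SE, FDR 0.000126), on 15 to 37 counts in *Bmpr1a*-cKO libraries.

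In the annotation, the lincRNA *Snhg6* overlaps *Mcmdc2* and *Mlx* overlaps *Psmc3ip*, both on the opposite strand. *Snhg6* (log2 fold change 0.44, FDR 0.131) and *Mlx* (0.15, FDR 0.328) did not pass the test, and whether strand was used in the counting is not given in the sources used here. *Spata22* shares its strand with the coding gene *Gm49340*, which was not among the genes counted. *Dmc1*, *4930432K21Rik* and *Brca2* overlap only non-coding RNA genes that were not counted, and *Mnd1* and *Meiob* overlap no other gene. Overlaps were also examined for the other pathway genes named here and for *Bmpr1a*, *Stra8* and *Gm4969*. Among these, *Hsf2bp*, *Mcm9* and *Xrcc3* overlap coding genes (*Rrp1b*, *Asf1a* and *Klc1*) on the opposite strand. *Hsf2bp*, *Mcm9*, *Bard1*, *Rpa1* and *Bmpr1a* also overlap annotated genes known by a Gm number only. Overlaps of the marker genes and of the genes with the closest patterns were not examined.

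The order of the 8 genes by level per kilobase of exon differed between the genotypes. The length used merges all annotated exons of a gene, while the annotation of the counting is not given in the sources used here. The order of the genes can therefore depend on this choice of length. In control ovaries, the level per kilobase of exon was highest for *Dmc1* (16.4 ± 2.52 CPM per kb, SD, n = 4), followed by *Brca2* (11.1), *4930432K21Rik* (10.2), *Spata22* (9.14), *Mnd1* (7.98), *Meiob* (4.78), *Psmc3ip* (2.67) and *Mcmdc2* (0.919). From *Brca2* to *Mnd1* the ranges of neighbours in this order overlapped, while *Dmc1*, *Meiob*, *Psmc3ip* and *Mcmdc2* were each separated from the next. In *Bmpr1a*-cKO ovaries, *Brca2* (9.24 ± 0.734 CPM per kb) and *Mnd1* (9.05 ± 0.824) came first, then *Dmc1* (7.66), *4930432K21Rik* (5.02), *Psmc3ip* (3.69), *Spata22* (1.80), *Meiob* (0.751) and *Mcmdc2* (0.351). Only *Psmc3ip* and *Spata22* were separated there, the ranges of all other neighbours overlapping. *Psmc3ip* thus stood below *Spata22* and *Meiob* in control ovaries and above both in *Bmpr1a*-cKO ovaries.

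Whether genes whose products act together changed by different amounts was examined with ratios formed within each library, which do not depend on how libraries are scaled. Of 5 ratios tested 4 are given, each by an exact permutation test of 4 against 4 libraries (two-sided), with p-values adjusted over all 5. The smallest p that the 70 arrangements allow is 0.0286. The ratio of *Psmc3ip* to *Dmc1* was 0.109, 0.174, 0.119 and 0.0987 in control libraries and 0.524, 0.436, 0.30 and 0.272 in *Bmpr1a*-cKO libraries, without overlap. This was a 3.02-fold increase (log2 difference 1.59, exact permutation p = 0.0286, adjusted 0.0476). *Psmc3ip* was higher and *Dmc1* lower in every *Bmpr1a*-cKO library than in any control. The separation of their ratio and its p were therefore already set by these levels and add no separate support. The ratio of *4930432K21Rik* to *Hsf2bp* fell from 0.656 ± 0.0603 to 0.444 ± 0.0616 (SD, n = 4, log2 difference -0.56, exact permutation p = 0.0286, adjusted 0.0476), again without overlap. Adjusted over the 4 ratios given alone, both of these values were 0.0571, which does not pass 0.05.

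Within the 2 heterodimers the genotypes overlapped and the ratios did not pass the test. *Psmc3ip* to *Mnd1* was 0.705 ± 0.0906 in control libraries and 0.848 ± 0.0757 in those of the *Bmpr1a*-cKO (SD, n = 4, log2 difference 0.27, exact permutation p = 0.0571, adjusted 0.0714). *Meiob* to *Spata22* was 0.747 ± 0.0766 and 0.588 ± 0.215 (SD, n = 4, log2 difference -0.39, exact permutation p = 0.314, adjusted 0.314), with *Bmpr1a*-cKO library 1 at 0.333 and library 2 at 0.824.

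**Figure D2:**
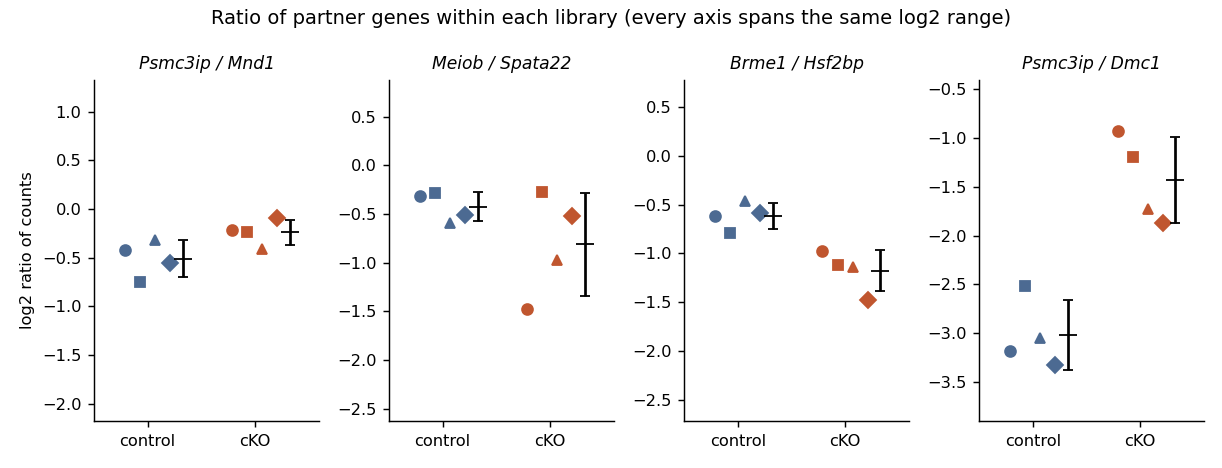
Log2 ratio of counts of 4 gene pairs (vertical axes, each spanning the same range) in 4 control (blue) and 4 *Bmpr1a*-cKO (orange) libraries, with a marker shape per replicate number and black bars for the mean ± SD. The genotypes separate for *Brme1* to *Hsf2bp* and *Psmc3ip* to *Dmc1*, and overlap for *Psmc3ip* to *Mnd1* and *Meiob* to *Spata22*.

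Most of the 25 other genes of the pathway that were examined, all of which were tested, did not pass. In all, 3 were lower and 6 higher at an FDR under 0.05, 16 did not pass, and the median log2 fold change was 0.014. Of all genes tested, 12.7% were lower and 17.3% higher. Among *Xrcc2*, *Xrcc3* and related genes, whose products act in homologous recombination, *Rad51d* was lower (log2 fold change -0.41) and *Rad51c* (0.27) and *Xrcc2* (0.27) were higher, out of 5. The call of *Xrcc2* was lost in 13 of 21 alternatives, among them the fits without control library 1, 2 or 4 or *Bmpr1a*-cKO library 2, 3 or 4 (FDR 0.058 to 0.144), and that of *Rad51c* in 8 of 21, among them those without control library 1 or 4 or *Bmpr1a*-cKO library 3 or 4 (FDR 0.0542 to 0.0847). Of 5 partners of BRCA2 and BRCA1, only *Bard1* passed the test and was higher (0.44). Its call was lost with scaling to the summed germ cell markers, to their geometric mean or to *Ddx4* (FDR up to 0.718), as was that of *Rad51d* with the last 2 of these (FDR up to 0.329). Of 3 subunits of RPA, the general single-strand binding complex, 2 were higher, the DEG *Rpa1* (98.6 ± 8.24 to 153 ± 10.6 CPM, SD, n = 4, log2 fold change 0.64 ± 0.0698 SE, FDR 3.04e-06) and *Rpa3* (0.35, FDR 0.0232). The *Rpa3* call was lost without control library 3 or 4 or *Bmpr1a*-cKO library 3 or 4 (FDR 0.0718 to 0.115). These counts depend on scaling: with libraries scaled to the summed germ cell markers, 6 of the 25 genes were lower and 0 higher, against 22.5% of all genes lower and 2.31% higher, and *Rpa1* no longer passed (log2 fold change 0.28, FDR 0.226), while *Xrcc2* (-0.07), *Rad51c* (-0.09) and *Rpa3* (-0.04) turned in sign without passing.

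Of 12 other regulators, including the Shu complex, *Rad51ap2* and *Helq* (log2 fold change -0.27, not passing without control library 1, FDR 0.057, or *Bmpr1a*-cKO library 4, FDR 0.0629) were lower and *Mcm9*, which encodes an MCM helicase of homologous recombination, was higher (0.55 ± 0.0731 SE, FDR 2.52e-05). The *Helq* call was also lost with scaling to the geometric mean of the germ cell markers or to *Ddx4*. That of *Mcm9* was lost with scaling to the summed germ cell markers or to *Ddx4* (FDR up to 0.395). *Rad51ap2* was the only DEG of the 25 that was lower, at 10.4, 6.29, 5.81 and 12.7 CPM in control and 0.715, 1.41, 1.88 and 4.78 CPM in *Bmpr1a*-cKO libraries. Its groups did not overlap, but *Bmpr1a*-cKO library 4 lay near the lowest control. The log2 fold change was -1.91 ± 0.507 SE (FDR 0.027), and the call was lost without control library 1 (FDR 0.0616), control library 4 (0.0528), *Bmpr1a*-cKO library 2 (0.0778) or *Bmpr1a*-cKO library 3 (0.0738), and with no filter on low counts (0.052).

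**Figure D3:**
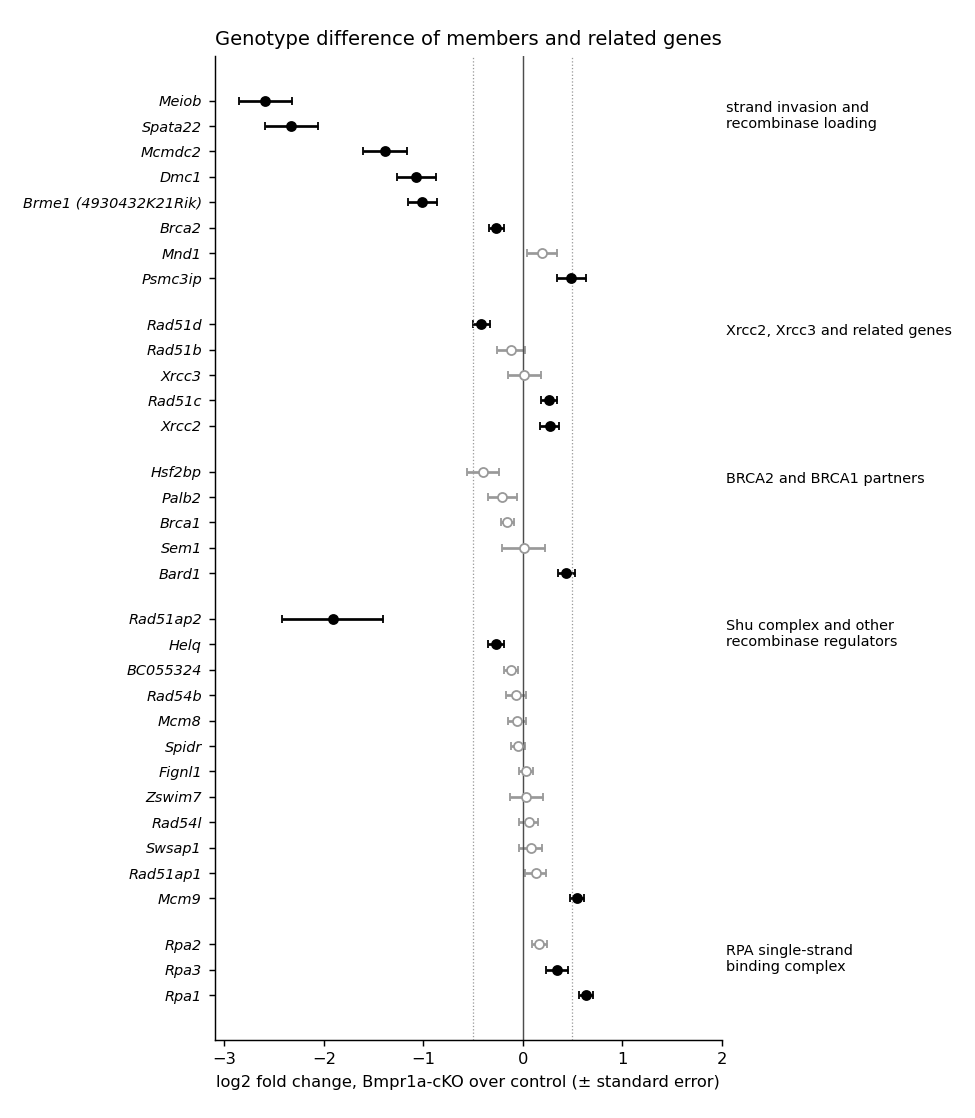
Log2 fold change of *Bmpr1a*-cKO over control (horizontal axis, bars ± SE) for the 8 genes and for 25 other genes of recombinase assembly, grouped by role, with filled black points for an FDR under 0.05, open grey points otherwise and dotted lines at an absolute value of 0.5. *Meiob* (-2.59), *Spata22* (-2.33) and *Rad51ap2* (-1.91) lie furthest left, and most of the other 25 genes lie between the dotted lines.

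The members also varied within each genotype. Control library 2 was the lowest control for 6 of 8 genes, *Psmc3ip* and *Mnd1* being the exceptions with control library 2 as the highest. *Bmpr1a*-cKO library 1 was the lowest of its group for 4 of 8 genes (*Dmc1*, *Meiob*, *4930432K21Rik* and *Brca2*) and *Bmpr1a*-cKO library 4 was the highest for *Dmc1*, *Meiob*, *Spata22* and *Mcmdc2*. These libraries also had the lowest (616 CPM) and the highest (979 CPM) summed germ cell markers among the *Bmpr1a*-cKO libraries. The controls showed no such match. Control library 4, the highest control for 4 of 8 genes, was at 570 CPM and control library 2 at 665 CPM, within a control range of 569 to 755 CPM. The part of these markers in the spread was not tested. Without *Bmpr1a*-cKO library 1, or any other library, the 5 DEGs among the members were still called.

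By the root mean square difference of centred log2 CPM over the 8 libraries, *Psmc3ip* and *Mnd1* were the closest pair among the 8 genes (0.19), followed by *Dmc1* with *4930432K21Rik* (0.213) and *Dmc1* with *Mcmdc2* (0.222). *Spata22* was the member nearest to *Meiob*, at 0.344. The pair with the least similar patterns was *Psmc3ip* and *Meiob* (1.67). These distances include the difference between the genotypes and are given as a description.

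**Figure D4:**
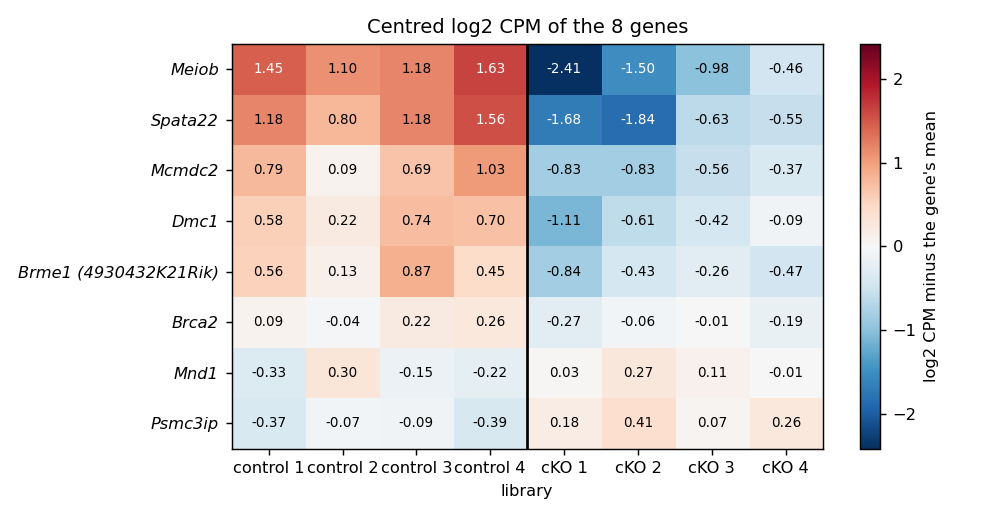
Log2 CPM of each of the 8 genes (rows) in each library (columns, 4 control left and 4 *Bmpr1a*-cKO right of the line) minus the mean of the gene over all libraries, in red above and blue below that mean. *Meiob* reaches -2.41 in *Bmpr1a*-cKO library 1 and -0.46 in library 4, and *Psmc3ip* is the only gene below its mean in all control libraries.

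Outside the 8 genes, the 5 genes whose pattern over the 8 libraries was closest to the mean pattern of the members were *Jade3* (root mean square difference 0.0541 on the log2 scale), *Zcwpw1* (0.0731), *Acss2* (0.0846), *Slc22a21* (0.0962) and *Esco2* (0.0983). All 5 were DEGs that were lower, with log2 fold changes from -1.15 to -0.88. The mean pattern of the members was itself lower in *Bmpr1a*-cKO libraries, so this direction follows from how the 5 genes were chosen. *Zcwpw1*, which encodes a reader of histone marks at meiotic recombination hotspots, was at 112 to 140.2 CPM in control and 51.5 to 88.2 CPM in *Bmpr1a*-cKO libraries. For single members the nearest gene was *Atf7ip2* for *Dmc1* (0.0869), *Ddias* for *Psmc3ip* (0.0579), *Kcnip1* for *Mnd1* (0.0732), *Tppp* for *Meiob* (0.302), *Cited1* for *Spata22* (0.155), *Brsk2* for *4930432K21Rik* (0.125), *Ift122* for *Brca2* (0.0476) and *H2-D1* for *Mcmdc2* (0.0912). *Meiob* had the most distant nearest gene of the 8, on 4 to 34 counts in *Bmpr1a*-cKO libraries, and the part of counting error in this distance was not tested.

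Of the pair of regulators that switch on meiotic genes, *Stra8* was at 98.2 to 120 CPM in control and 96.0 to 153 CPM in *Bmpr1a*-cKO libraries (log2 fold change 0.30 ± 0.152 SE, FDR 0.179), and it passed without *Bmpr1a*-cKO library 1 (0.41, FDR 0.009). *Gm4969*, which encodes MEIOSIN, was at 95.2, 73.9, 100.3 and 109 CPM in control and at 16.1, 21.9, 31.4 and 35.3 CPM in *Bmpr1a*-cKO libraries. It was 3.57-fold lower, without overlap (log2 fold change -1.84 ± 0.243 SE, FDR 0.00136). Like *Dmc1*, *Meiob*, *4930432K21Rik* and *Brca2*, it was lowest in control library 2 among the controls and in library 1 among the *Bmpr1a*-cKO libraries. *Spata22* and *Mcmdc2* were lowest in *Bmpr1a*-cKO library 2, but only narrowly below library 1 (1.26 against 1.43 CPM and 1.78 against 1.79 CPM). The exact intervals of these 2 libraries overlapped for both genes, so counting error does not allow them to be ordered.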

How the data were processed

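Gene counts of 8 pools of fetal ovaries, 4 per genotype, were analysed. The authors made strand-specific libraries, processed the reads with Trimmomatic 0.39 and STAR 2.5.2 on mm10 (per the submitters' processing notes) and deposited unnormalised counts of reads per gene symbol. The annotation and strand setting are not given in the sources used here. A deposited CPM table was not used.

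Genes were filtered (filterByExpr), scaled by TMM and compared by the edgeR 4.0.16 quasi-likelihood F test (robust, two-sided, Benjamini-Hochberg over 14249 genes) in R 4.3.3. CPM values are TMM-scaled, and log2 CPM of single libraries carries a prior count of 2. The procedure was tested on simulated data. Ratios of partners carried a prior count of 0.5. Positions and exon lengths came from GENCODE vM21 (mm10) and promoters from RefSeq.

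Depth was 8562961 to 15365052 counts per library. The exact interval of a CPM value covers counting error only, whereas the 95% intervals of log2 fold changes come from the quasi-likelihood fit. Genes given by name are the 8 members, the targeted gene, *Stra8* and *Gm4969*, *Hsf2bp*, DEGs of the lists and the genes with the closest patterns. Other list genes that passed the test, marker genes, and genes overlapping a member were named after their values were seen. 1 gene of the lists, and the ratio that used it, are not reported here. The members and lists were chosen with earlier results of these data known. Alternatives were the likelihood ratio test, limma-voom 3.58.1, DESeq2 1.42.0, other scalings and filters, the replicate number as a block and each library left out.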

Additional observations from a re-analysis of the deposited data

How the results depend on the processing

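*Dmc1*, *Meiob*, *Spata22*, *4930432K21Rik* and *Mcmdc2* kept their direction and an FDR under 0.05 in every alternative, including without each library in turn. Of 272 recomputed values, 230 were classed as unchanged. For a gene or a ratio this meant the same direction and call, and for a count of genes only a number of similar size. With scaling to the summed germ cell markers, the median of all genes moved to -0.36 and there were 3373 DEGs (9.69% higher), *Psmc3ip* was at 0.12 (FDR 0.686), *Mnd1* turned to -0.17 (FDR 0.56), and 6 pathway genes were lower and 0 higher. With library size alone, 5 were lower and 3 higher. Scalings added after seeing the data gave *Psmc3ip* 0.44 (FDR 0.273), *Brca2* -0.31 (FDR 0.333) and 1 pathway gene lower and 2 higher with the geometric mean of the germ cell markers, and 728 DEGs (52.1% higher), *Psmc3ip* 0.38 (FDR 0.689), *Brca2* -0.36 (FDR 0.608) and 1 pathway gene lower and 0 higher with *Ddx4*. The cause was not tested. With no fold change minimum, 4267 genes passed. Robust estimation was also switched off after seeing the data, with no change of a member's call.

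Without each library in turn, the log2 fold change of *Psmc3ip* ranged from 0.42 to 0.54, pathway genes lower from 1 (without control library 1) to 4 and higher from 3 (without control library 4, or *Bmpr1a*-cKO library 3 or 4) to 7, and DEGs from 1282 to 1617. The log2 ratio ranged from -0.63 to -0.47 for *4930432K21Rik* to *Hsf2bp* and from 1.42 to 1.76 for *Psmc3ip* to *Dmc1*, where 3 against 4 libraries allow no exact p under 0.0571. Libraries that share replicate number 1, 2, 3 or 4 correlated at 0.198, 0.161, 0.108 and -0.0871 in their deviations. Since 1 of 4 pairs was not above 0.1, the numbers were not taken to pair them, although *Bmpr1a*-cKO libraries 1, 2 and 3 each correlated best with the control of their number. With the replicate number as a block, there were 1462 DEGs and no member changed its call, while *Stra8* (0.28, FDR 0.0326) and *Bmpr1a* (-0.16, FDR 0.0373) passed, and the paired ratios were -0.56 and 1.59, respectively, for which 16 sign arrangements allow no p under 0.125 (adjusted 0.208).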
